A study of Homo sapiens with 12 samples.

Results

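Interferon-stimulated genes and the transcription factors that regulate them were followed across 4 HEK293T lines that differ in the EZH2 they express. The members are 46 gene symbols given by name, and 32 of them had a row among the 14438 genes of the count table. The symbols DHX58, OAS1, OAS2, OASL, PARP14, IFIT2, IFIT3, RSAD2, SP100, MX1, SAMD9L, IFI27, IFI44 and XAF1 had no row in the table used here and were not analysed. CMPK2 was at 0 in every library of 2 lines and was left out of the tests, so 31 members were tested among 14263 genes. RNA-Seq was performed on HEK293T, a human embryonic kidney cell line, in 4 groups with 3 replicates each. The groups express wild-type EZH2 (WT), one of the gain-of-function (GOF) mutants Y641F and A677G, or the loss-of-function (LOF) double mutant H689A/F667I. All lines, WT included, were infected with lentivirus and selected with blasticidin, and the endogenous EZH2 gene was not reported as removed. The study's methods describe the selected cells as monoclonal populations, with 1 line for each genotype, so the mutation and the line that carries it cannot be told apart, and p-values measure the spread between the replicates of these lines.

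Interferons are secreted signals that bind receptors at the cell surface and, through the kinases JAK1 and TYK2, activate STAT2. STAT2 and IRF9 belong to a complex that binds the interferon-stimulated response element (ISRE) in the promoters of antiviral genes, and IRF1, IRF2, IRF3 and IRF7 bind related sequences. RNA sensors such as RIG-I and MDA5 start interferon production when they meet foreign or double-stranded RNA, and their own genes respond to interferon. EZH2 is the catalytic subunit of Polycomb repressive complex PRC2, which places the repressive mark H3K27me3 on chromatin.

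The promoters of the members are shown first, because the ISRE is the sequence element for which these genes are known. RefSeq promoters on GRCh38.p14, from 250 bases before to 50 bases after the start site, were matched by symbol to 27 of the 32 members. The core of the ISRE was searched as GAAANNGAAA, which reads TTTCNNTTTC on the other strand. A match was found in at least 1 promoter of 16 of the 27 members with a promoter, while 3.57% of the 34943 promoters in the RefSeq table held one. The members are counted by gene, and some have several promoters, so the units of these shares differ. All 4 members that were lower than WT in both GOF mutants held a match, as did 12 of the other 23. The GAS element, searched as TTCNNNGAA on both strands, was found in 5 of the 27 members, against 7.66% of all promoters, with the same difference in units. A match is a description of letters and not a measured binding site. The windows below run from 170 bases before to 20 bases after the start site, 5′ to 3′ on the strand of the gene, with the matches in capitals. OAS3, IFIH1, SAMD9 and DTX3L are the members that fell in both GOF mutants, and ISG15 and EIF2AK2 are members with a match that did not pass the test in any comparison.
OAS3 (chr12:112938304-112938493, plus strand): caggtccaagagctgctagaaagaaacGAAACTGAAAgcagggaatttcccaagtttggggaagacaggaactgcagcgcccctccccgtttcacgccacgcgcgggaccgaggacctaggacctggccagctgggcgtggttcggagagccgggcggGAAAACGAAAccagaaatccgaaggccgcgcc
IFIH1 (chr2:162318665-162318854, minus strand): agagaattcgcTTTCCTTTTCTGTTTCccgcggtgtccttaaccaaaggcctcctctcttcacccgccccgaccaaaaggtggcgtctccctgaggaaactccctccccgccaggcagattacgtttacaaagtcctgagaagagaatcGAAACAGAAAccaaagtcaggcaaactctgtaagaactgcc
SAMD9 (chr7:93117960-93118149, minus strand): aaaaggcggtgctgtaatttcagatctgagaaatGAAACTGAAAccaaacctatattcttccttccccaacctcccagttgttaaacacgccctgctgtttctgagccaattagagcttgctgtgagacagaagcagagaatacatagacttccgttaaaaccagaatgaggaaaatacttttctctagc
DTX3L (chr3:122564168-122564357, plus strand): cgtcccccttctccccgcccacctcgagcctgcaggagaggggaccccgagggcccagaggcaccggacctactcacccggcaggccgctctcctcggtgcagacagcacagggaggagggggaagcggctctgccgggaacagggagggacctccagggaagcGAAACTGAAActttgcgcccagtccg
ISG15 (chr1:1013327-1013516, plus strand): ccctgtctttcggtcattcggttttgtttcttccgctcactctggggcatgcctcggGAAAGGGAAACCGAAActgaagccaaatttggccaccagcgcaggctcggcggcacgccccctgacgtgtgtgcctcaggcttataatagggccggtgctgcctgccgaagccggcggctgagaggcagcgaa
EIF2AK2 (chr2:37156961-37157150, minus strand): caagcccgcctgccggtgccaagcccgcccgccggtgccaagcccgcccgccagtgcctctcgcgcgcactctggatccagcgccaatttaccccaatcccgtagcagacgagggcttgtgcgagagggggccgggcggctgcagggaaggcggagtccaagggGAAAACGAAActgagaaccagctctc

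The windows show that the same letters stand in promoters of both kinds. OAS3 held 2 matches in its window and ISG15 also held 2, while DTX3L and EIF2AK2 each held 1 match, which in both spanned the start site from -6 to 4. IFIH1 held 3 matches, of which the 2 upstream ones overlap and lie on the other strand. SAMD9 held 1 match, from -136 to -127. The ratio of observed to expected CpG dinucleotides was 0.731 for the OAS3 promoter, 0.63 for IFIH1, 0.607 for DTX3L and 0.34 for SAMD9, and the median of all promoters was 0.577. ISG15 had 0.752 and EIF2AK2 had 0.768.

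**Figure D1:**
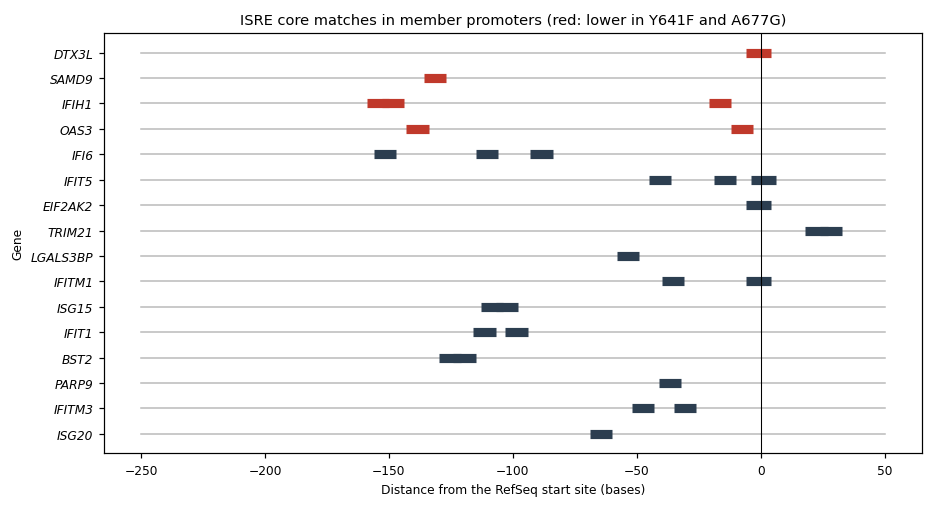
Positions of ISRE core matches along the promoters of the 16 members that hold one, as bases from the RefSeq start site. Each bar is a match, drawn on a line for the 250 bases before and 50 bases after the start site; the 4 members lower in both Y641F and A677G are in red, and matches lie on both sides of the colour split.

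Total counts per library ranged from 32137700 to 44562413, and the common biological coefficient of variation was 0.0471. Levels are given as CPM, the counts scaled to library size and by the trimmed mean of M-values (TMM). EZH2 itself, counted over the introduced and the endogenous transcript together, was 158.1 ± 4.32 CPM (SD, n = 3) in WT, 217.8 ± 9.61 in Y641F, 173.4 ± 8.57 in A677G and 208.0 ± 2.03 in the LOF mutant. Of the markers of the cell line, NEFM, NEFL, INA, VIM, CDH2, LIN28B and CCND1 were present in every library. PAX2 was between 0.311 and 0.594 CPM in 3 lines and at 0 in A677G. Of the markers of leukocytes, endothelial cells and fibroblasts, PTPRC, CD3E, CD14, LYZ, PECAM1, CDH5, VWF, COL1A2 and DCN had no row, while COL1A1 and LUM had mean levels of 1.33 to 7.32 CPM. Replicate 1 of Y641F stood apart from its line on the principal components of all genes, with 5.60 on the first component against 17.67 and 17.11 for the other replicates, so the Y641F values of genes past the threshold, and others that it moved most, are also given without it.

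Most members were expressed at a low level, and a few carried most of the counts. Per kilobase of exon, the members' median level was 1.027 CPM, against 4.614 for the 13920 genes of known exon length, and 27 of 32 members lay below the latter value. ADAR, which edits adenosines in double-stranded RNA, was highest at 27.51 CPM per kilobase, followed by the transcription factor IRF3 at 8.361 and the nucleotide hydrolase SAMHD1 at 5.81. CMPK2, ISG20, OAS3, IFIH1 and SAMD9 were the lowest 5 of the 32, with levels between 0.0465 and 0.219 CPM per kilobase. Exon length here is that of all annotated exons of a gene merged, such as 18045 bases for OAS3, so the order depends on the annotation. ADAR alone held 50.3% of the counts of all members, and ADAR, SAMHD1, TRIM25 and EIF2AK2 together held 74.4%. The members summed to between 643.7 and 691.5 CPM in each library before TMM scaling. In 12 members the highest library was less than 1.5 times the lowest, while that ratio was 6.80 in IFIH1, 5.71 in SAMD9, 5.5 in BST2, 5.001 in IFITM3 and 4.89 in OAS3. Of these 5, BST2 and IFITM3 did not pass the test in any comparison.

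**Figure D2:**
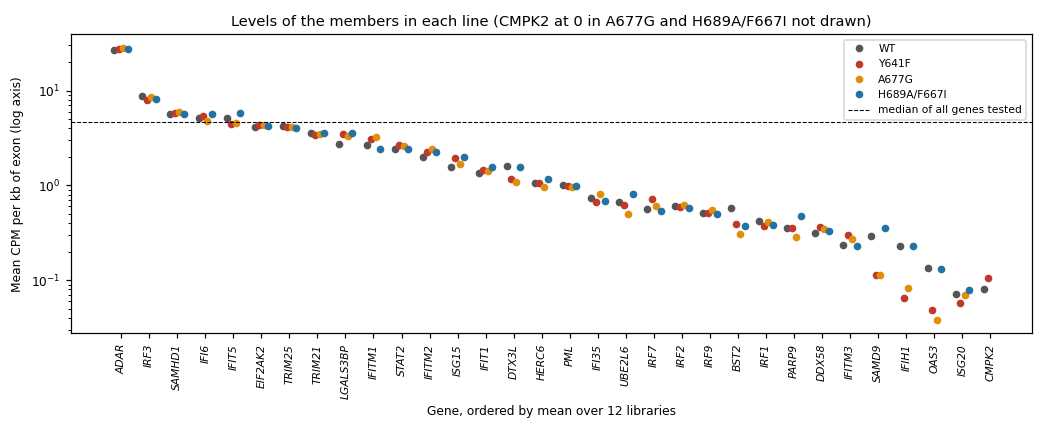
Mean level of each member in each line, in CPM per kilobase of exon on a log axis, ordered by the mean over the 12 libraries; each point is the mean of 3 replicates and the dashed line is the median of all genes, 4.614. ADAR is highest in every line, and the points of SAMD9, IFIH1 and OAS3 split into a pair of lower points, Y641F and A677G, and a pair of higher ones.

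The first question was which members differ between each GOF mutant and WT. In Y641F, 4 members were lower (OAS3, IFIH1, SAMD9 and DTX3L), 1 was higher (LGALS3BP) and 26 did not pass a threshold of 0.05 in the quasi-likelihood test of edgeR, adjusted over all genes by Benjamini-Hochberg. Of all genes tested, 5.59% were lower and 2.09% higher in Y641F by the same rule. In A677G, the 4 members named above were lower, 0 were higher and 27 did not pass, while 6.48% of all genes were lower and 2.07% higher. The median log2 fold change of the members was -0.01 in Y641F and 0 in A677G, and that of all genes was 0 in both. Both comparisons use the same WT libraries, so they are not independent of each other. Without replicate 1 of Y641F, 4 members were called in Y641F, all lower. Without WT replicate 1 or WT replicate 3 the count in Y641F was 3, since DTX3L and LGALS3BP no longer passed. In these bulk libraries, fewer cells that express a gene and less RNA per cell cannot be told apart.

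Among the RNA sensors, OAS3 and IFIH1 fell in both GOF mutants, and DDX58, EIF2AK2 and ADAR did not pass the test. OAS3 (ENSG00000111331.14, chr12:112938051-112976460 of GRCh38, plus strand) makes the oligoadenylates that switch on RNase L when double-stranded RNA is present. Its WT replicates had 2.11, 2.43 and 2.75 CPM, those of Y641F 1.33, 0.657 and 0.638, those of A677G 0.561, 0.688 and 0.823, and those of the LOF mutant 2.246, 2.241 and 2.699. Every GOF library was below every WT and LOF library, and replicate 1 of Y641F was the highest of the GOF libraries. The log2 fold change was -1.46 in Y641F (SE 0.265, adjusted p = 0.000203 by edgeR's quasi-likelihood test) and -1.82 in A677G (SE 0.275, adjusted p = 1.19e-05 from the same edgeR test). Without replicate 1 of Y641F the value in Y641F was -1.90, with an adjusted p of 1.04e-05 from the same edgeR test. The raw counts behind these values were 78, 94 and 91 in WT and 25, 28 and 30 in A677G.

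IFIH1 (ENSG00000115267.10, chr2:162267074-162318684, minus strand) encodes MDA5, the cytoplasmic sensor of long double-stranded RNA. Its levels were 1.79, 0.932 and 0.875 CPM in WT and 0.476, 0.263 and 0.284 CPM in Y641F. In A677G they were 0.606, 0.393 and 0.302 CPM, and in the LOF mutant 1.43, 1.02 and 1.12 CPM. The GOF libraries were all below the WT libraries, of which replicate 1 was the highest and stood apart from the other replicates. IFIH1 changed by -1.80 on the log2 scale in Y641F (SE 0.372, adjusted p = 0.001 by edgeR's quasi-likelihood test) and by -1.44 in A677G (SE 0.357, adjusted p = 0.00602 from the same edgeR test). Without WT replicate 1, the change in A677G was -1.04 and its adjusted p was 0.128 from the same edgeR test. Without replicate 1 of Y641F, the change in Y641F was -2.12 (adjusted p = 0.000766 by edgeR). The counts were between 10 and 66 in the libraries of WT, Y641F and A677G, so IFIH1 was one of the thinnest members tested.

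The other RNA sensors had intervals that held 0 in both GOF mutants. DDX58, named RIGI in current annotation, encodes the sensor of short triphosphate RNA RIG-I, and its log2 fold change was 0.22 in Y641F (95% interval -0.10 to 0.55) and 0.14 in A677G (-0.19 to 0.47). EIF2AK2, which encodes the kinase PKR that stops translation, had 45.8 ± 2.07 CPM (SD, n = 3) in WT, 48.4 ± 2.81 in Y641F and 47.4 ± 1.82 in A677G. The interval of its difference from WT ran from -0.03 to 0.19 in Y641F and from -0.06 to 0.16 in A677G. ADAR was 329.3 ± 4.52 CPM (SD, n = 3) in WT, 339.2 ± 8.13 in Y641F and 343.8 ± 5.82 in A677G, with a log2 difference of 0.04 and 0.06, neither past the threshold.

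**Figure D3:**
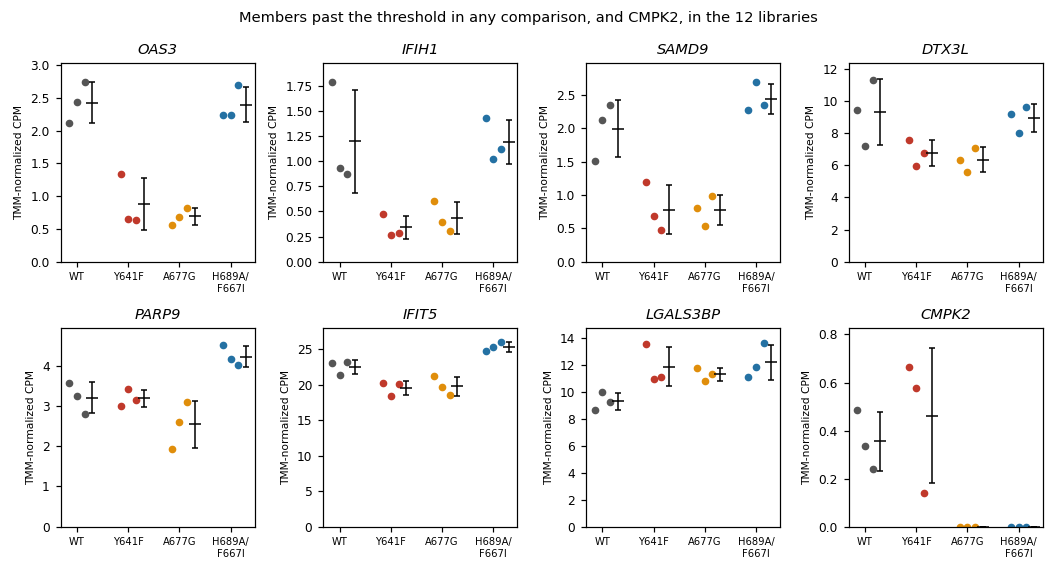
TMM-normalized CPM of the 7 members past the threshold in any comparison and of CMPK2, in each of the 12 libraries. Points are replicates 1 to 3 from left to right within a line, and the bar beside them is the mean with 1 SD; OAS3, IFIH1 and SAMD9 show all Y641F and A677G points below all points of WT and of H689A/F667I.

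SAMD9 (ENSG00000205413.8, chr7:93099513-93118023, minus strand), which encodes a cytoplasmic antiviral protein, fell in both GOF mutants. Its replicates had 1.515, 2.123 and 2.353 CPM in WT, 1.19, 0.683 and 0.473 in Y641F, 0.808, 0.541 and 0.987 in A677G, and 2.273, 2.699 and 2.358 in the LOF mutant. No GOF library reached the lowest WT library, and replicate 1 of Y641F came nearest to it. The raw counts were 56, 82 and 78 in WT and 50, 26 and 20 in Y641F. They were 36, 22 and 36 in A677G and 84, 106 and 76 in the LOF mutant. All of these counts were even, and the bearing of this on the values was not tested. The log2 fold change was -1.34 in Y641F (SE 0.291, adjusted p = 0.00174 by edgeR's quasi-likelihood test) and -1.36 in A677G (SE 0.291, adjusted p = 0.0014 from the same edgeR test). Without replicate 1 of Y641F it was -1.79 in Y641F (adjusted p = 0.000144 by edgeR).

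DTX3L and PARP9 encode partner proteins, a ubiquitin ligase and an ADP-ribosyl transferase relative that act together, and their genes lie head to head. DTX3L (ENSG00000163840.10, chr3:122564338-122575203, plus strand) and PARP9 (ENSG00000138496.17, chr3:122527924-122564577, minus strand) overlap, with start sites 239 bases apart. The libraries came from a stranded kit, but the strand setting of the counting is not given in the sources used here, so the overlapping part of both counts is uncertain. DTX3L had 9.44, 7.22 and 11.3 CPM in WT, 7.58, 5.96 and 6.79 in Y641F, 6.35, 5.55 and 7.10 in A677G, and 9.173, 7.996 and 9.651 in the LOF mutant. WT replicate 2 lay within the range of Y641F and just above that of A677G. The log2 fold change of DTX3L was -0.45 in Y641F (SE 0.132, adjusted p = 0.0254 by edgeR's quasi-likelihood test) and -0.56 in A677G (SE 0.133, adjusted p = 0.0045 by the same edgeR test). Without replicate 1 of Y641F it was -0.54 in Y641F (adjusted p = 0.0102 by edgeR). The call in Y641F was lost without WT replicate 1 (adjusted p = 0.0886), WT replicate 3 (0.246, at -0.29), Y641F replicate 2 (0.125) or Y641F replicate 3 (0.0646), all by the same edgeR test, and under limma voom with sample quality weights (0.0833). The call in A677G was lost without WT replicate 3 (0.0845) or A677G replicate 2 (0.0511).

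PARP9 did not pass against WT in either GOF mutant. Its levels were 3.57, 3.24 and 2.81 CPM in WT, 3.00, 3.41 and 3.15 in Y641F and 1.93, 2.61 and 3.10 in A677G, so both mutants overlapped WT. Its log2 fold change was -0.01 in Y641F (95% interval -0.37 to 0.34) and -0.34 in A677G (-0.71 to 0.02, adjusted p = 0.28 by edgeR's quasi-likelihood test). The difference between DTX3L and PARP9 within a line was not tested.

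The remaining members of the ISG15 pathway, in which the ubiquitin-like protein ISG15 is attached to other proteins, did not pass in either GOF mutant. ISG15 was low, with 1.488, 1.501 and 1.116 CPM in WT, 1.64, 1.60 and 1.82 in Y641F and 1.48, 1.40 and 1.54 in A677G. Its Y641F replicates were above those of WT, but the log2 fold change of 0.30 had an interval from -0.23 to 0.82. UBE2L6, the conjugating enzyme for ISG15, had -0.11 in Y641F and -0.43 in A677G, with an interval in A677G from -1 to 0.13. TRIM25, the ligase that activates RIG-I, was 51.9 ± 1.54 CPM (SD, n = 3) in WT and 51.9 ± 3.78 in Y641F, and 51.8 ± 2.02 in A677G. HERC6, a relative of the ligase that attaches ISG15, had -0.01 and -0.15.

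LGALS3BP and IFIT5 were the other members that passed in some comparison. LGALS3BP (ENSG00000108679.13, chr17:78971238-78979947, minus strand) encodes a secreted glycoprotein that binds galectins. It had 8.69, 9.99 and 9.23 CPM in WT, 13.55, 10.98 and 11.11 in Y641F, 11.8, 10.8 and 11.4 in A677G, and 11.1, 11.8 and 13.7 in the LOF mutant. Every library of each mutant was above every WT library. The log2 fold change was 0.35 in Y641F (SE 0.102, adjusted p = 0.0245 by edgeR's quasi-likelihood test), 0.28 in A677G (SE 0.103, adjusted p = 0.0852) and 0.39 in the LOF mutant (SE 0.103, adjusted p = 0.124, all by the same edgeR test). Of these values, that of Y641F was past the threshold. The difference between Y641F and A677G was 0.07 and that of the GOF mean from the LOF mutant -0.07, neither of which passed. The call in Y641F was lost without WT replicate 1 (adjusted p = 0.14), WT replicate 3 (0.0665) or Y641F replicate 1 (0.157, at 0.25) by the same edgeR test, and under limma voom (0.0791). LGALS3BP passed in A677G under limma voom (0.0426) and with the compared groups alone in the fit (0.0433), and in the LOF mutant with edgeR's exact test (0.042).

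IFIT5 (ENSG00000152778.10, chr10:89414568-89421605, plus strand) encodes an RNA-binding protein of the IFIT family. It had 23, 21.41 and 23.23 CPM in WT, 20.3, 18.46 and 20.03 in Y641F, 21.2, 19.6 and 18.5 in A677G, and 24.68, 25.24 and 26 in the LOF mutant. The libraries were ordered with both GOF mutants lowest, WT between and the LOF mutant highest, without overlap between these levels. Against WT, none of the differences passed: the log2 fold change was -0.20 in Y641F (adjusted p = 0.0772 by edgeR's quasi-likelihood test), -0.19 in A677G (0.102) and 0.17 in the LOF mutant (0.478). After removal of the dependence on GC content in each library, IFIT5 passed in Y641F at -0.23 (adjusted p = 0.0304) and in A677G at -0.21 (0.049). IFIT1, the family member that binds RNA without a proper cap, had 0.11 in Y641F, 0.09 in A677G and 0.20 in the LOF mutant, with an interval of -0.08 to 0.48 in the last.

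The transcription factors among the members did not pass the test in any of the mutants. IRF3, which is activated by the RNA and DNA sensing pathways, was the most abundant, with 33.2 ± 2.07 CPM (SD, n = 3) in WT, 30.4 ± 2.30 in Y641F, 32.2 ± 2.15 in A677G and 31.1 ± 1.42 in the LOF mutant. Its log2 fold change lay between -0.26 and 0.01 in Y641F, between -0.17 and 0.09 in A677G and between -0.22 and 0.04 in the LOF mutant, as 95% intervals. STAT2, a subunit of the complex that binds the ISRE, was 22.7 ± 1.24 CPM (SD, n = 3) in WT, 24.6 ± 0.829 in Y641F, 24.0 ± 1.60 in A677G and 22.6 ± 2.03 in the LOF mutant. IRF9, the DNA-binding subunit of that complex, was lower in level, at 3.33 ± 0.534 CPM (SD, n = 3) in WT, and its log2 fold changes were 0.01, 0.09 and -0.06 in Y641F, A677G and the LOF mutant. For STAT2 these values were 0.11, 0.08 and -0.01.

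IRF1, an activator that is itself induced by interferon gamma, had 5.85, 4.82 and 4.95 CPM in WT and 4.778, 4.596 and 4.398 in Y641F. The Y641F replicates were all below those of WT, by a log2 fold change of -0.18 with an interval of -0.46 to 0.10. IRF2, a related factor that can oppose IRF1, had values of -0.02, 0.02 and -0.05 in the 3 mutants. IRF7, which amplifies interferon production, had the lowest CPM of these factors, not corrected for length, with 0.974, 1.71 and 1.75 CPM in WT and 2.21, 1.73 and 1.63 in Y641F. Its log2 fold change in Y641F was 0.33 with an interval of -0.17 to 0.84, and 0.19 without replicate 1 of Y641F.

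Membrane proteins and nuclear members likewise did not pass in any comparison with WT. IFITM1, IFITM2 and IFITM3, which block virus entry at membranes, lie beside each other on chromosome 11 and are near-identical in parts, so their separate counts are uncertain. IFITM1 had 4.03, 4.71 and 4.44 CPM in WT, 6.80, 4.73 and 4.07 in Y641F, 5.23, 5.16 and 5.68 in A677G, and 4.55, 3.95 and 3.66 in the LOF mutant. All A677G replicates were above those of WT, by a log2 fold change of 0.28 (95% interval -0.03 to 0.60). In Y641F the value was 0.24, and 0 without replicate 1. BST2, the tether that holds budding virus at the cell surface, had under 1 CPM in every library and values of -0.52, -0.87 and -0.63 in Y641F, A677G and the LOF mutant, with intervals that all held 0. SAMHD1, which removes nucleotides needed by viruses, was 62.1 ± 1.17 CPM (SD, n = 3) in WT, 63.5 ± 4.68 in Y641F and 64.9 ± 1.66 in A677G. PML, the organizer of nuclear bodies, had log2 fold changes of -0.06, -0.09 and -0.05, and TRIM21, the antibody-binding ligase, of -0.09, -0.07 and -0.02. IFI6, IFI35 and ISG20 ranged from -0.31 to 0.16 over the mutants.

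**Figure D4:**
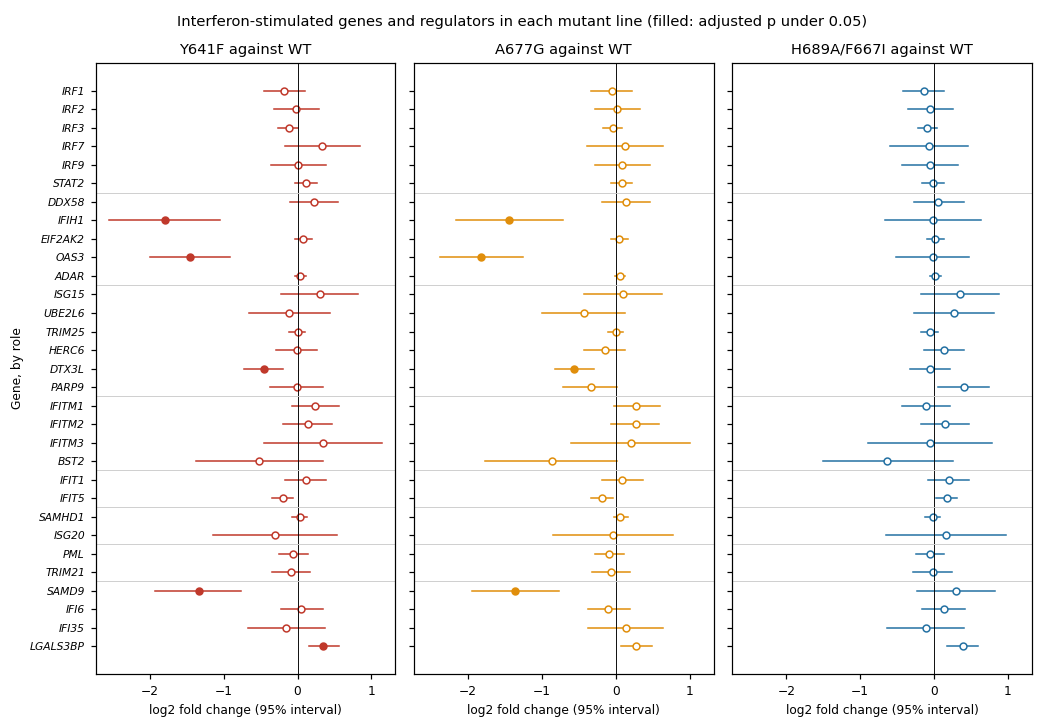
Log2 fold change against WT of the 31 members tested, grouped by role, in each mutant, with the 95% interval from edgeR's quasi-likelihood fit. Filled points passed an adjusted p of 0.05: OAS3, IFIH1, SAMD9 and DTX3L in both GOF mutants and LGALS3BP in Y641F, while all points of H689A/F667I are open.

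The LOF mutant was compared with WT to ask whether the members differ in a line that expresses the LOF form of EZH2. The endogenous EZH2 gene was not reported as removed, so the comparison does not show the members without EZH2 activity. The study reported lower H3K27me3 in this line by mass spectrometry, but an unperturbed deposition of the mark along the genome. By edgeR's quasi-likelihood test, 0 of 31 members passed an adjusted p of 0.05, beside 0.301% of all genes in either direction. At an unadjusted p under 0.05 there were 3 of 31 members, beside 1184 of all 14263 genes. The exact test of edgeR called 1 member, LGALS3BP, beside 45 of all genes lower and 31 higher, while DESeq2 and limma voom called 0 members. The members' median log2 fold change was -0.01. The members that fell in the GOF mutants had values of -0.02 for OAS3 (95% interval -0.51 to 0.47), -0.01 for IFIH1 (-0.66 to 0.63), 0.30 for SAMD9 (-0.23 to 0.82) and -0.06 for DTX3L (-0.32 to 0.21). For each of these 4 the interval lay above the value measured in either GOF mutant. The 4 were picked by those GOF values against the same WT libraries, so this is no test of the difference, which is given below. PARP9 had 4.519, 4.151 and 4.003 CPM in the LOF mutant, all above the WT replicates, at a log2 fold change of 0.40 that did not pass (adjusted p = 0.501 by edgeR's quasi-likelihood test).

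Between Y641F and A677G, 0 of 31 members passed, beside 0.0841% of all genes in either direction. There were 0 members at an unadjusted p under 0.05, beside 985 of all 14263 genes, and 0 members by edgeR's exact test, DESeq2 or limma voom. The median log2 difference was 0.02, as Y641F minus A677G, and the members ranged from -0.36 for IFIH1 to 0.36 for OAS3. The intervals were wide for these genes, from -1.21 to 0.49 for IFIH1, -0.26 to 0.97 for OAS3 and -0.63 to 0.66 for SAMD9, so the GOF mutants are not shown to be alike at these members.

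A direct contrast of GOF with LOF, the mean of Y641F and A677G against H689A/F667I, has no WT term. The scaling and the spread behind its SE were still estimated from all 12 libraries, WT included. In this contrast 6 of 31 members were lower in the GOF mutants (OAS3, IFIH1, SAMD9, DTX3L, PARP9 and IFIT5) and 0 were higher, beside 8.75% of all genes lower and 3.81% higher. The members' median was -0.02. The log2 difference was -1.65 for SAMD9 (SE 0.237, adjusted p = 2.8e-06 by edgeR's quasi-likelihood test), -1.62 for OAS3 (SE 0.224, adjusted p = 1.48e-06) and -1.61 for IFIH1 (SE 0.304, adjusted p = 0.000184). Each of these corresponds to a level in the GOF mutants of 0.319, 0.326 and 0.328 times that of the LOF mutant. At the other 3 members the difference was smaller, with -0.58 for PARP9 (SE 0.148, adjusted p = 0.00599), -0.45 for DTX3L (SE 0.114, adjusted p = 0.00583) and -0.36 for IFIT5 (SE 0.0601, adjusted p = 3.2e-05, all by the same edgeR test). In each of the 6, every GOF library was below every LOF library. The 6 were picked by a test on these same libraries, so this separation adds no support of its own. The share of all genes separated in this way is not given here. The calls of PARP9 and DTX3L depended on single LOF libraries, with an adjusted p of 0.0578 for PARP9 without LOF replicate 1 and 0.0598 for DTX3L without LOF replicate 3.

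CMPK2 (ENSG00000134326.12, chr2:6840570-6866635, minus strand), a mitochondrial nucleotide kinase gene that neighbours RSAD2, could not be read in the same way. Its counts were 18, 13 and 8 in WT and 28, 22 and 6 in Y641F, and 0 in all replicates of A677G and of the LOF mutant. In the table as a whole, 175 genes were at 0 in every replicate of at least 1 line, 134 of them in A677G, 100 in the LOF mutant and 59 in both. There were 0 genes at 0 in exactly 2 of the 3 replicates of any line. CMPK2 therefore shares its pattern with a set of low genes whose zeros come in whole lines, and no fold change is given for it.

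The interferon pathway outside the members was followed through 49 further genes from receptors to effectors, of 76 symbols listed. The list was chosen with earlier results of these data known, so its counts describe the listed genes alone. None of the 8 interferon genes on the list had a row. In Y641F 6 of the 49 were lower and 1 higher, in A677G 7 were lower and 2 higher, and in the LOF mutant 0 passed in edgeR's quasi-likelihood test, beside the percentages of all genes given above. The exact test of edgeR, DESeq2 and limma voom also called 0 in the LOF mutant. At an unadjusted p under 0.05 there were 3 of the 49 in the LOF mutant, beside 1184 of all 14263 genes. The medians of the 49 were 0.02, 0.02 and -0.01 in Y641F, A677G and the LOF mutant. Of the 15 receptors and signalling proteins, 0 passed against WT in any mutant. The receptor chain IFNAR1 had 0.02, 0.07 and -0.08, and the kinase TYK2 had 0.01, -0.03 and -0.02.

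IRF8, a transcription factor of the interferon regulatory family known from myeloid and B cells, was a regulator outside the member list that fell. It had 4.76, 4.09 and 3.71 CPM in WT, 2.62, 2.42 and 1.96 in Y641F, 1.32, 1.77 and 1.97 in A677G, and 7.85, 5.07 and 5.40 in the LOF mutant. All GOF libraries were below all WT libraries, and all LOF libraries were above them. The log2 fold change was -0.85 in Y641F (SE 0.187, adjusted p = 0.00222 by edgeR's quasi-likelihood test) and -1.32 in A677G (SE 0.195, adjusted p = 8.22e-06), while 0.54 in the LOF mutant did not pass (adjusted p = 0.283, all by the same edgeR test). In Y641F the value was -0.94 without its replicate 1. The difference of the GOF mutants from the LOF mutant was -1.63 (SE 0.154, adjusted p = 5.39e-10 by edgeR), with no overlap between libraries.

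Of the further interferon-stimulated genes on the list, SP110, DDX60, TAP1 and HERC5 fell in both GOF mutants. SP110, a nuclear body protein gene, had 1.68, 0.932 and 1.45 CPM in WT, 0.476, 0.525 and 0.166 in Y641F and 0.494, 0.295 and 0.494 in A677G, and fell by 1.80 and 1.65 on the log2 scale. It overlaps SP140 on the other strand, which had no row, and the strand setting of the counting is not given in the sources used here. DDX60, a helicase of the RIG-I pathway, had 2.00, 2.12 and 2.29 CPM in WT, 1.19, 0.998 and 0.993 in Y641F and 1.26, 1.08 and 0.878 in A677G, a fall by 1.01 and 0.99. TAP1, which carries peptides to major histocompatibility complex class I, fell by 0.58 in Y641F and 0.41 in A677G, and HERC5, the ligase that attaches ISG15 to proteins, by 0.25 and 0.29. IFI44L fell by 1.56 in A677G (SE 0.432, adjusted p = 0.0148 by edgeR's quasi-likelihood test), and its value in Y641F was -0.73 with an interval of -1.52 to 0.06, and -1.28 without replicate 1 of Y641F (adjusted p = 0.0688 by edgeR). The adjusted p in Y641F and A677G was 0.000962 and 0.00183 for SP110, 0.00401 and 0.00426 for DDX60, 3.67e-05 and 0.00269 for TAP1, and 0.0136 and 0.00228 for HERC5, by the same edgeR test. Without replicate 1 of Y641F, the values in Y641F were -1.98 for SP110, -1.10 for DDX60, -0.68 for TAP1 and -0.30 for HERC5, all past the threshold. Against WT, the LOF values were -0.64 for SP110, 0.03 for DDX60, -0.01 for TAP1 and 0.12 for HERC5. For IFI44L the LOF value was -0.66, and none of these LOF values passed. Mean levels of IFI44L were 0.726 CPM in WT, 0.437 in Y641F, 0.243 in A677G and 0.465 in the LOF mutant. The difference of the GOF mean from the LOF mutant at IFI44L was -0.49 and did not pass (adjusted p = 0.473 by edgeR's quasi-likelihood test). In A677G, IFI44L did not pass without WT replicate 1 (0.102), WT replicate 2 (0.0603) or A677G replicate 3 (0.0782), nor HERC5 in Y641F without WT replicate 2 (0.0867) or Y641F replicate 2 (0.105).

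**Figure D5:**
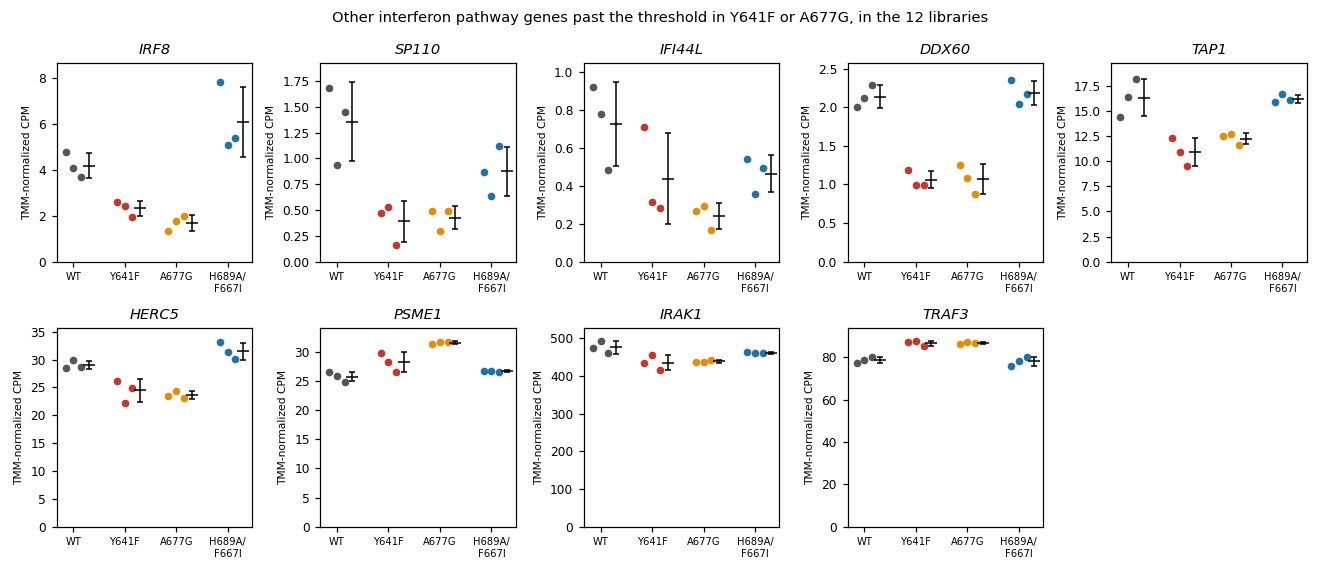
TMM-normalized CPM in each of the 12 libraries for the 9 other pathway genes past the threshold in Y641F or A677G. Points are replicates and the bar is the mean with 1 SD. For IRF8, SP110, DDX60, TAP1, HERC5 and IRAK1 all Y641F and A677G points lie below all WT points. For TRAF3 and, by a narrow margin, PSME1 they lie above, and for IFI44L the Y641F points overlap those of WT.

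Of the other pathway genes that passed, IRAK1, TRAF3 and PSME1 had log2 fold changes of small size. IRAK1, a kinase of Toll-like receptor signalling, had 476.3 ± 16.5 CPM (SD, n = 3) in WT, 435.5 ± 20.2 in Y641F and 439.3 ± 4.12 in A677G, a fall by 0.13 and 0.12 on the log2 scale. TRAF3, an adaptor on the way from RNA sensors to interferon genes, was 78.6 ± 1.40 CPM (SD, n = 3) in WT, 86.6 ± 1.198 in Y641F and 86.6 ± 0.459 in A677G, and rose by 0.14 in both. PSME1, a proteasome activator subunit, rose by 0.30 in A677G (SE 0.061, adjusted p = 0.000927 by edgeR's quasi-likelihood test). For IRAK1 and TRAF3 the adjusted p was between 0.0177 and 0.0327 by the same edgeR test. A call of IRAK1 or TRAF3 was lost when any one of WT replicates 1 and 2, Y641F replicates 2 and 3 or the A677G replicates was left out, but not without Y641F replicate 1 (-0.13 for IRAK1 and 0.14 for TRAF3 in Y641F). With the compared groups alone in the fit, IRAK1 (adjusted p = 0.0805 by edgeR) and TRAF3 (0.0781) did not pass in Y641F, and with upper-quartile factors TRAF3 did not pass in A677G (0.0566). Against the LOF mutant, the GOF mean was lower at 8 of the 49 genes (IRF8, DDX60, HERC5, TAP1, SP110, JAK1, SOCS3 and NLRC5) and higher at 3 (TRAF3, PSME1 and IFNAR1) by edgeR's quasi-likelihood test, beside 8.75% of all genes lower and 3.81% higher.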

How the data were processed

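Poly(A) RNA libraries were prepared with the TruSeq Stranded mRNA kit from total RNA of HEK293T lines with EZH2 WT, Y641F, A677G or H689A/F667I, 3 per line. Per the labels and the study's methods, reads were trimmed with Trim Galore 0.6.5, aligned to GRCh38 with STAR 2.7.9a and quantified with Salmon 1.2.0, and the authors tested with edgeR 3.16. The authors deposited whole-number raw counts for each gene symbol, not normalized. The step from Salmon to these counts, the gene filter and the strand setting are not given in the sources used here. Besides DTX3L and PARP9, the members IRF3, EIF2AK2, TRIM25 and IFIT1 overlap a gene on the other strand that has a row. Part of their counts may be uncertain in the same way.

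Genes at 0 in all replicates of a line (175) were left out, and the other 14263 passed edgeR's filterByExpr. Counts were fitted in R 4.3.3 with edgeR 4.0.16 (TMM, quasi-likelihood, all 12 libraries, 1 coefficient per line, no covariate), in place of the authors' exact test, which was an alternative. P-values were adjusted by Benjamini-Hochberg over all genes tested, with a threshold of 0.05. CPM are TMM-normalized, SE are the unshrunk log2 fold change over the square root of F, and intervals are at 95%. Counting error is limited by totals of 32137700 to 44562413, and members under 1 mean CPM (5 of 32) rest on few reads. Exon lengths, positions and names are from GENCODE on GRCh38, where 13272 symbols matched by name, 809 by an older symbol and 357 had no match. Motifs were searched on both strands of RefSeq promoters.

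The members and lists were chosen with earlier results of these data known. Genes named with full values were all members past the threshold in any comparison, the transcription factors, the 3 largest changes per mutant whose mean log2 CPM reached 1, and members at 0 in a line. Other pathway genes were named where they passed, with a few of the signalling genes that did not. Alternatives were edgeR's exact test, DESeq2 1.42.0, upper-quartile factors, library totals, no filter, at least 10 counts in every sample, genes at 0 kept, the compared groups alone, replicate number as a block, limma 3.58.1 voom with quality weights, GC trend removed with a loess span of 0.5 (with and without the block), and each replicate left out. Since 0 genes failed filterByExpr, the alternative with no filter is the main fit again and is no separate check. The procedures were tested on simulated data. The results of 2 genes of the marker and pathway lists are not reported here.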

Additional observations from a re-analysis of the deposited data

Results flagged for a closer look

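The following results were picked out because the effect of the GOF mutants and that of the LOF mutant differed from each other in a test of the difference itself, the mean of Y641F and A677G against H689A/F667I in edgeR's quasi-likelihood fit with Benjamini-Hochberg adjustment. Among the members, the log2 difference was -1.65 for SAMD9, -1.62 for OAS3, -1.61 for IFIH1, -0.58 for PARP9, -0.45 for DTX3L and -0.36 for IFIT5. For SAMD9, OAS3 and IFIH1 the LOF values against WT were 0.30, -0.02 and -0.01, while for PARP9 and IFIT5, which did not pass against WT in any mutant, the GOF values were at or below 0 and the LOF values were 0.40 and 0.17.

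Among the other pathway genes, the difference was -1.63 for IRF8, -1.09 for SP110, -1.03 for DDX60, -0.49 for TAP1 and -0.39 for HERC5, all genes that also fell against WT in both GOF mutants. SOCS3, an inhibitor of cytokine receptor signalling, differed by -0.76 (adjusted p = 0.04 by edgeR), NLRC5, an activator of class I genes, by -0.91 (0.0382) and the kinase JAK1 by -0.16 (0.00109), and none of them passed against WT. TRAF3 was higher in the GOF mutants by 0.15, PSME1 by 0.16 and IFNAR1 by 0.12. These calls were lost without single libraries: SP110 without Y641F replicate 3, A677G replicate 2 or LOF replicate 1 or 3, NLRC5 without Y641F replicate 2 or 3, A677G replicate 2 or LOF replicate 1 or 2, and SOCS3 without these or A677G replicate 3. PSME1 lost its call without Y641F replicate 1 or any A677G or LOF replicate, and IFNAR1 without Y641F replicate 3, A677G replicate 1 or 3 or any LOF replicate. NLRC5 also lost its call under DESeq2 (adjusted p = 0.0528) and with the compared groups alone (0.0517 by edgeR), PSME1 with upper-quartile factors (0.0753), and IFNAR1 with the GC trend removed (0.0559), at least 10 counts in every sample (0.0513), the compared groups alone (0.0565) and upper-quartile factors (0.101). At NLRC5 and PSME1 the GOF and LOF libraries overlapped.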

How the results depend on the processing

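OAS3 and SAMD9 were lower in both GOF mutants and past the threshold under every alternative run, with log2 fold changes of -1.90 to -1.27 and -1.79 to -1.08 in Y641F and of -1.96 to -1.68 and -1.55 to -1.16 in A677G. No alternative dealt with the even counts of SAMD9. IFIH1 ranged from -2.12 to -1.39 in Y641F and from -1.77 to -1.04 in A677G. The count of members called was 5 in Y641F and 3 under limma voom with quality weights (IFIH1, OAS3 and SAMD9), and between 3 and 5 with one replicate left out. In A677G it was 4, and 3 to 4 with one replicate left out, and against the LOF mutant it was 6, and 5 to 7. In the LOF mutant the count of 0 became 1 with edgeR's exact test (LGALS3BP) and 1 with genes at 0 kept (CMPK2). Between Y641F and A677G the count of 0 also became 1 with genes at 0 kept (CMPK2). The count of other pathway genes in Y641F was 7, and 4 to 7 with one replicate left out, the lowest without WT replicate 2. Of the single-gene results, 862 kept their side of the threshold with one replicate left out, 60 lost and 2 gained it. Under the other alternatives 1611 kept it, 12 lost and 14 gained it. Most of these results were not past the threshold in the main fit, so that keeping their side meant staying uncalled, and only a call could be lost. The numbers kept are therefore no measure of how stable the calls were. The other alternatives include the fit with no filter, which repeats the main fit. No result changed direction past the threshold. The cause was not tested where a call was lost. Over all genes, the count called in the LOF mutant was 43, against 76 with the exact test, 99 with limma voom, 86 with the compared groups alone and 169 with genes at 0 kept. Between Y641F and A677G it was 12, against 23 with the exact test, 19 with DESeq2 and 178 with genes at 0 kept. Deviations of libraries with the same replicate number correlated by -0.056 to 0.05, with none of 18 pairs over 0.1, so the numbers were not taken as pairing, and the replicate block left the count of members at 5 in Y641F and 4 in A677G. The direct GOF against LOF contrast has no value under the exact test. Depth limits IFIH1, IFITM3, BST2, ISG20 and CMPK2, which had under 1 CPM on average.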

Other observations

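Among counts of 10 to 29 in the table, 62.5% were even, against 50.7% of counts from 1000 to 4999. The members with the fewest reads, among them IFIH1 and CMPK2, have counts in the first range in several libraries. Every count of SAMD9, BST2 and IFI6 was even, and so was every count of IFI44L, outside the member list. Those of IFI6 were between 152 and 232, above the first range. IFIH1 and CMPK2 held both even and odd counts. The bearing of even counts on the values of these genes was not tested. PAX2, a gene outside the member list, was at 0 in all A677G replicates in the same way as CMPK2, with counts of 12 to 25 in WT and Y641F.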
